A study of Mus musculus with 9 samples.

Results

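The 10 genes described here carry the machinery that fills synaptic vesicles with a transmitter or makes the transmitter: the vesicular glutamate transporters Slc17a6, Slc17a7 and Slc17a8, the vesicular GABA transporter Slc32a1, the GABA synthesis enzymes Gad1 and Gad2, the catecholamine enzymes Th, Ddc and Dbh, and the vesicular monoamine transporter Slc18a2. They were chosen by name and are 10 of the 21536 genes in the deposited table of unique molecular identifiers (UMIs, 1 for each captured transcript) in Drop-seq cell barcodes. Ganglia of FVB/N wild type mice aged 3 to 6 weeks by the labels (3 to 5 weeks by the methods), of both sexes by the methods, were dissociated, enriched for neurons by a density gradient and depleted of glia, and run in 9 Drop-seq runs of pooled mice. There was no treatment, and the table does not say which run a barcode came from, so all barcodes formed 1 pooled sample without replicates, in which groups of cells could be described but not tested. The neuron groups below are therefore ranges set by marker counts within 1 sample, not conditions.

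Primary sensory neurons signal to the spinal cord and brainstem with glutamate, which a vesicular glutamate transporter loads into synaptic vesicles. Neurons that release GABA instead need a glutamate decarboxylase (Gad1 or Gad2) and Slc32a1. Catecholamines are made in steps, in which Th converts tyrosine to L-DOPA, Ddc converts L-DOPA to dopamine and Dbh converts dopamine to noradrenaline, while Slc18a2 loads these amines into vesicles. Th is also known as a mark of a class of low-threshold C-fibre neurons in sensory ganglia of the body.

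A barcode was counted as a neuron when it held 500 to 7500 genes, at least 3 of the 6 markers Tubb3, Scn9a, Snap25, Nefl, Nefm and Uchl1, and no Epcam. This gave 3855 neurons of 6997 barcodes, with 20924276 UMIs and a median of 3014 UMIs per neuron. They were placed in the first group they matched: 244 with 2 or more Trpm8 UMIs (the cold receptor), 379 with 2 or more Mrgprd, 49 with Mrgpra3, 57 with 2 or more Nppb, 320 with Cd34, 450 with 5 or more Nefh (a neurofilament of large neurons) and no Trpv1, and 916 with 5 or more Calca (CGRP) and Trpv1. The other 1440 neurons are called the remaining group, whose median of 1826.5 UMIs was the lowest of the 8 groups. Of all neurons, 349 (9.05%) matched more than 1 group rule, among them 149 of the 244 Trpm8 neurons (61.1%), 21 of the 49 Mrgpra3 neurons (42.9%), 100 of the 379 Mrgprd neurons (26.4%) and 73 of the 320 Cd34 neurons (22.8%), and no barcode was removed as a doublet. All 8 genes of a somatosensory neuron list were seen in the neurons, with a median share of 47.4%, from Prph in 92.7%, Avil in 69.5% and Isl1 in 51.3% down to Tlx3 in 17.1% and Prrxl1 in 3.63%. In the remaining group Prph, Avil and Isl1 were in 84.2%, 51.9% and 34.9%, and summed glia markers stood at 8769 CPM (UMIs per 1000000 UMIs) there against 2381 in all neurons. The part of free RNA and of mixed barcodes in the values of that group was not tested.

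Levels are given as UMIs of a gene per 1000000 UMIs of the group (CPM), with exact Poisson 95% intervals in parentheses, and shares of cells with a UMI with exact binomial (Clopper-Pearson) 95% intervals. Both cover counting error only, and are too narrow where a few neurons hold most UMIs of a gene. Free RNA can give a barcode a UMI of a gene its cell does not express, so shares are set beside 318 glia barcodes (median 1651 UMIs) and 1052 red blood cell barcodes (median 1268.5 UMIs). CPM was not compared between genes, since the capture of their 3′ ends may differ.

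Slc17a6 encodes VGLUT2, the main vesicular glutamate transporter of sensory ganglia, and lies on chromosome 7 at 51622006 to 51671119 (GRCm38, plus strand). It was found in 2507 of 3855 neurons (65.0%, 63.5 to 66.5%) with 8370 UMIs, or 400 CPM (391 to 409). Only 5 of 318 glia barcodes (1.57%) and 27 of 1052 red blood cell barcodes (2.57%) held a UMI of it, at 8.68 and 20.3 CPM. The share of neurons depended on depth. In 4 bins of about equal size, from the shallowest to the deepest neurons, it was 38%, 55.7%, 72.6% and 93.9%, while the level was 407, 408, 400 and 398 CPM. The neurons without any Slc17a6 UMI had a median of 1883.5 UMIs against 4308 in those with one.

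The level of Slc17a6 differed between the groups by more than counting error. It was 702 CPM (666 to 738) in the Trpm8 group, 459 (436 to 484) in the Cd34 group, 432 (410 to 455) in the Nefh group and 390 (369 to 411) in the remaining group. It was 306 (291 to 322) in the Calca group, 301 (283 to 321) in the Mrgprd group, 297 (241 to 363) in the Mrgpra3 group and 109 (74.2 to 155) in the Nppb group. In this order the Trpm8 group was clear of the Cd34 group, the remaining group of the Calca group and the Mrgpra3 group of the Nppb group, and the other neighbours had overlapping intervals. Relative to the other neurons, Slc17a6 was higher in the Trpm8 group by 0.94 (0.86 to 1.02) on the log2 scale and lower in the Nppb group, with a log2 ratio of -1.89 (-2.45 to -1.38).

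Shares followed the levels except where depth differed. Slc17a6 was seen in 221 of 244 Trpm8 neurons (90.6%), 280 of 320 Cd34 neurons (87.5%), 350 of 450 Nefh neurons (77.8%), 293 of 379 Mrgprd neurons (77.3%), 33 of 49 Mrgpra3 neurons (67.3%), 602 of 916 Calca neurons (65.7%), 708 of 1440 remaining neurons (49.2%) and 20 of 57 Nppb neurons (35.1%). After every cell was thinned at random to 1000 UMIs, the shares were 52.0% in the Trpm8 group, 41.6% in the Cd34 group, 35.3% in the Nefh group, 30.9% in the remaining group, 29.8% in the Mrgprd group, 27.2% in the Calca group, 24.5% in the Mrgpra3 group and 10.5% in the Nppb group. At equal depth the shallow remaining group thus stood beside the Mrgprd and Calca groups, and Nppb neurons kept the lowest share (4.0 to 21.5%). The Nppb group held only 31 Slc17a6 UMIs, against 115 that the level of the other neurons would give.

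**Figure D1:**
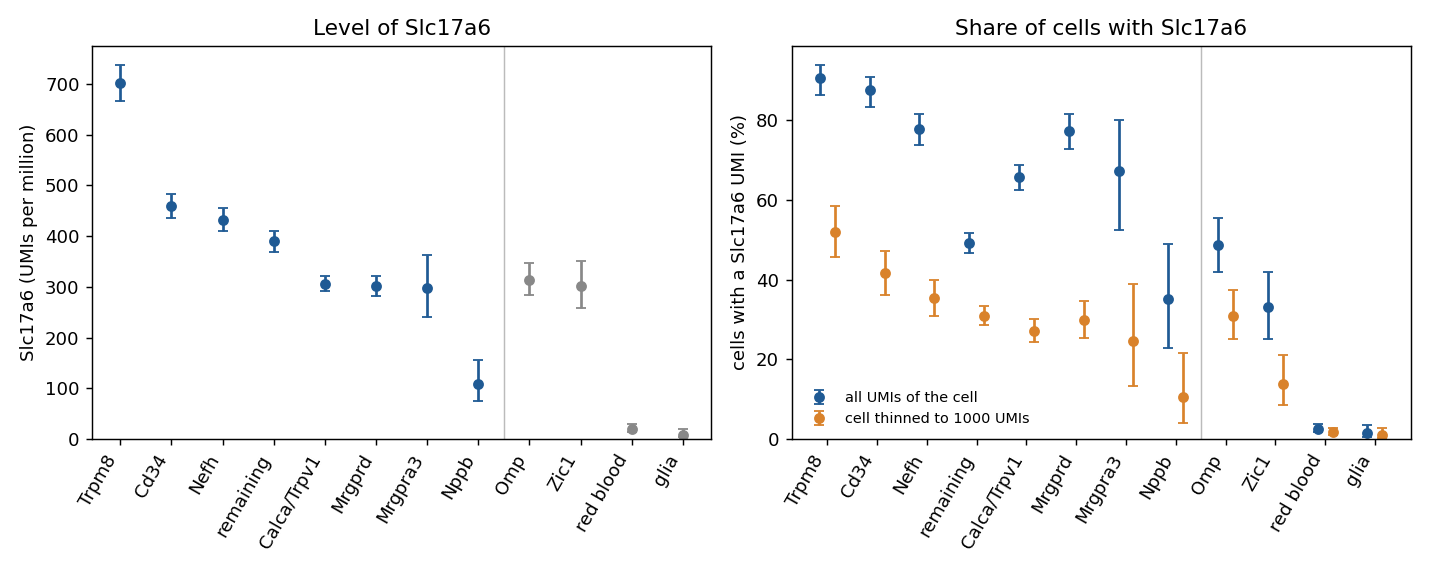
Left, Slc17a6 CPM of each set of barcodes, with Poisson 95% intervals; right, the percent of barcodes with a Slc17a6 UMI as sequenced and after thinning to 1000 UMIs, with binomial 95% intervals. The Trpm8 group was highest at 702 and the Nppb group lowest of the neuron groups at 109, and glia and red blood cell barcodes lay at 8.68 and 20.3.

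Slc17a6 was also seen in barcodes with markers of 2 other kinds of neuron. Barcodes with 2 or more Omp UMIs (Omp marks olfactory sensory neurons, and the 8 genes of an olfactory list had a median share of 72.3% in them against 4.98% in all neurons) held Slc17a6 in 110 of 226, at 314 CPM, and 68 of them met the neuron rule. Barcodes with a Zic1 UMI, a transcription factor of central neurons, held it in 43 of 130, at 301 CPM, and 76 of them met the neuron rule. At 1000 UMIs the shares were 31.0% of Omp barcodes and 13.8% of Zic1 barcodes. Both sets also held RNA of all 8 somatosensory genes, with a summed level of 3772 CPM in Omp barcodes and 2630 in Zic1 barcodes against 4476 in all neurons, and Prph in 34.1% and 40% of them. Its part in their Slc17a6 was not tested.

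Slc17a7 encodes VGLUT1 (chromosome 7, 45163949 to 45176142, plus strand), the transporter known in sensory ganglia for large-diameter neurons. It was sparse, with 73 UMIs in 59 neurons, and 60 of these UMIs lay in 47 Nefh neurons (10.4%, 7.78 to 13.6%). Its level was 17.7 CPM (13.5 to 22.7) in the Nefh group and 0.742 in all other neurons, a log2 ratio of 4.57 (3.69 to 5.56). The Trpm8, Calca, Cd34 and remaining groups held 3, 3, 2 and 5 UMIs. The Mrgprd, Mrgpra3 and Nppb groups held none, for which the upper limits of the exact interval are 0.969%, 7.25% and 6.27% for the share with a UMI, not the share that expresses the gene. None of the glia and none of the red blood cell barcodes held it. Of the 59 neurons with Slc17a7, 53 also held Slc17a6, where independent detection would give 38.4. These 53 neurons had a median of 9184 UMIs. At 1000 UMIs both were seen in 4 neurons against 3.87.

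Slc17a8 encodes VGLUT3 (chromosome 10, 89574020 to 89621253, minus strand), the transporter known for low-threshold C-fibre neurons. It had 80 UMIs in 70 neurons. The Cd34 group held 48 of the UMIs in 41 of its 320 neurons (12.8%, 9.35 to 17.0%), at 15.5 CPM (11.4 to 20.6) against 1.79 in the other neurons, a log2 ratio of 3.11 (2.44 to 3.80). When neurons that matched more than 1 group rule were left out, this ratio was 3.82. The Trpm8 group came next with 15 UMIs in 13 neurons (5.33%), at 7.07 CPM (3.96 to 11.7), and its interval just overlapped that of the Cd34 group. The remaining group held 10 UMIs, the Nefh group 4, the Mrgprd, Mrgpra3 and Calca groups 1 each and the Nppb group none. Glia (1 of 318) and red blood cell barcodes (1 of 1052) stood at 0.314% and 0.0951%.

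Of the 70 neurons with Slc17a8, 65 also held Slc17a6, against 45.5 by independent detection, and 6 against 5.49 at 1000 UMIs. Neurons with both Slc17a7 and Slc17a8 numbered 3. The 9 neurons with 2 or more Slc17a8 UMIs (6 in the Cd34 group, 2 in the Trpm8 group and 1 in the Nefh group) had a median of 28972 UMIs, and the 5 genes highest in them relative to other neurons were Pou4f2, Cdh9, Adamts9, Igfbp2 and Krt25, at 4.98 to 4.24-fold. Pou4f2 is a transcription factor of sensory neurons and Cdh9 a cadherin, and they were seen in 8 and 6 of the 9.

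Altogether 2518 neurons (65.3%) held at least 1 vesicular glutamate transporter, only 11 more than held Slc17a6. Slc17a7 without Slc17a6 was seen in 6 neurons and Slc17a8 without Slc17a6 in 5. Of the other 1337 neurons, the median depth was 1880 UMIs, at which a missing UMI does not show that the transporter is absent.

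Th (chromosome 7, 142892752 to 142931128, minus strand) had the second largest number of UMIs among the members. There were 578 UMIs in 202 neurons (5.24%, 4.56 to 5.99%), against none in 318 glia barcodes and 3 in 1052 red blood cell barcodes. Its level was 83.4 CPM (73.5 to 94.2) in the Cd34 group, 47.1 (38.4 to 57.3) in the Trpm8 group, 25.5 (20.6 to 31.4) in the remaining group, 19.1 (15.4 to 23.4) in the Calca group, 9.72 (6.69 to 13.6) in the Nefh group and 0.917 (0.189 to 2.68) in the Mrgprd group. Mrgpra3 and Nppb neurons held none, where 9.07 and 7.95 UMIs would be expected from the level of the other neurons. In this order only the remaining and Calca groups, and the last 3 groups, had neighbours with overlapping intervals.

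The 2 groups highest in Th had like shares of neurons with a UMI but unlike amounts per neuron. Th was seen in 50 of 320 Cd34 neurons (15.6%, 11.8 to 20.1%) and 44 of 244 Trpm8 neurons (18.0%, 13.4 to 23.4%). Among Cd34 neurons 13 held 5 or more Th UMIs and 10 held 10 or more, up to 25. Among Trpm8 neurons 4 held 5 or more and 1 held 10 or more, with 24 UMIs. At 1000 UMIs Th was seen in 5.94% of Cd34 neurons and 2.87% of Trpm8 neurons. The Calca group held Th in 38 of 916 neurons (4.15%), with 1 neuron at 21 UMIs, the remaining group in 51 of 1440 (3.54%), the Nefh group in 16 of 450 (3.56%) and the Mrgprd group in 3 of 379. The 5 highest neurons held 42.6% of the Th UMIs of the Cd34 group and 43% of those of the Trpm8 group. The log2 ratio to the other neurons was 2.22 (1.97 to 2.46) for the Cd34 group and 0.89 (0.57 to 1.20) for the Trpm8 group. Without the neurons that matched more than 1 group rule, the ratio of the Trpm8 group was 2.11, from the 95 of its 244 neurons that were left, and that of the Cd34 group 2.65. The level of Th was then 121 CPM (92.4 to 155) in the Trpm8 group and 123 (107 to 141) in the Cd34 group, with overlapping intervals.

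**Figure D2:**
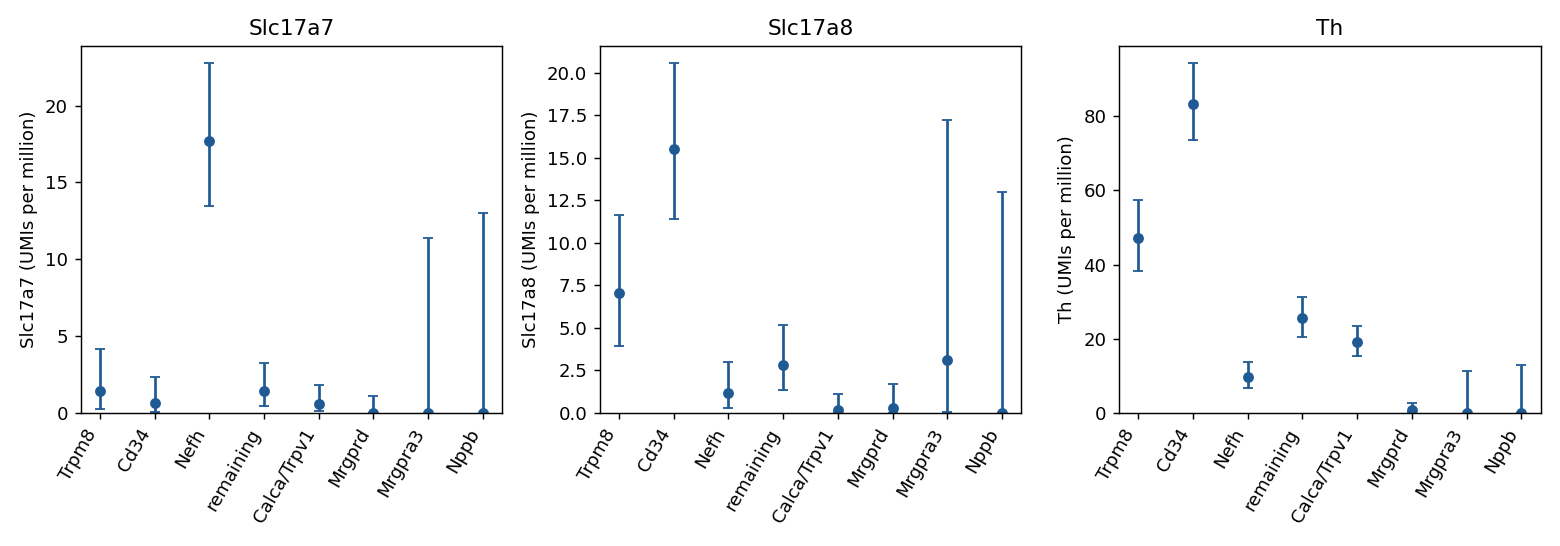
CPM of Slc17a7, Slc17a8 and Th in the 8 groups of neurons, each panel on its own linear axis, with Poisson 95% intervals. Slc17a7 stood apart in the Nefh group at 17.7, and Slc17a8 and Th were highest in the Cd34 group at 15.5 and 83.4.

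**Figure D3:**
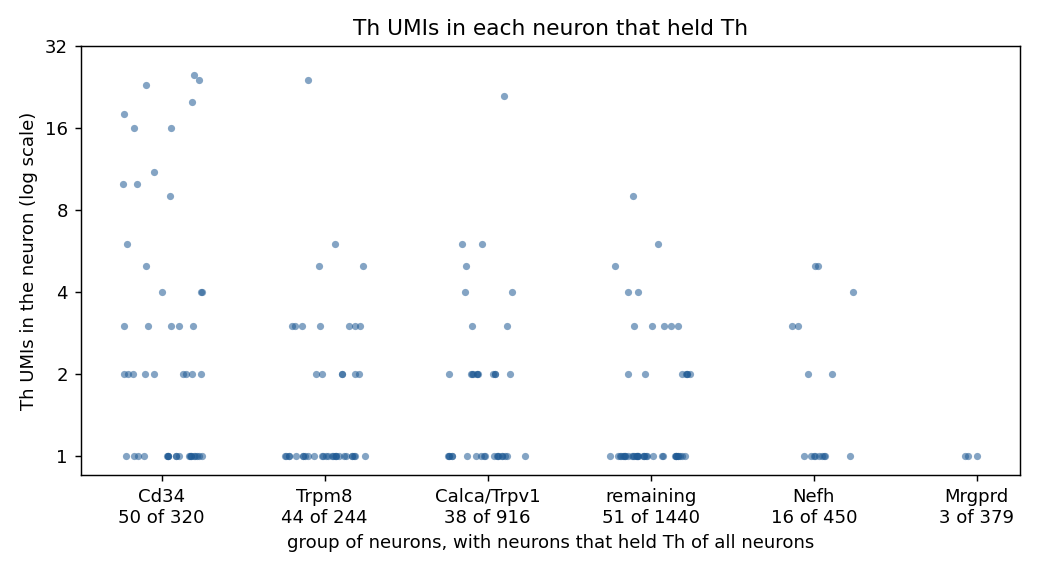
Th UMIs in each neuron that held Th, 1 point a neuron with random sideways shift, on a log axis, for the 6 groups with any Th. Of the 12 neurons with 10 or more UMIs, 10 were in the Cd34 group.

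The Trpm8 and Cd34 neurons with 2 or more Th UMIs were compared with those of the same group without Th. This choice took deeper neurons, with medians of 11354 against 5024.5 UMIs in the Trpm8 group and 12741.5 against 5447 in the Cd34 group, and the part of depth in the values below was not tested. The 17 Trpm8 neurons with 2 or more Th UMIs were led by Ndrg1 (321 CPM against 41.9 in 200 Trpm8 neurons without Th, in 10 of the 17), Dusp5, Mpped2, Fxyd6 and Zcchc12, at 7.65 to 6.07-fold. They held less Nefh (962 against 2156 CPM) and less Calca (175 against 474 CPM), more of the neuropeptide gene Gal (806 against 288 CPM), and about the same Trpm8 (554 against 564 CPM). Slc17a6 was seen in all 17, at 831 CPM against 698. In the Cd34 group the 30 neurons with 2 or more Th UMIs held less Nefh (186 against 818 CPM) and less Calca (29.1 against 428 CPM) than 270 Cd34 neurons without Th, while Cd34 (393 against 319 CPM), Slc17a6 (430 against 469 CPM) and the mechanosensitive channel gene Piezo2 (1335 against 1466 CPM) were closer. Some of these differences were also seen in the Calca group, where the 19 neurons with 2 or more Th UMIs held more Ndrg1 (61.4 against 14.5 CPM) and Gal (1128 against 749 CPM) and less Nefh (134 against 401 CPM) than 878 without Th. The differences between groups were not tested. Among neurons that matched 1 group rule only, an alternative chosen after seeing the data, Calca was 110 CPM in 10 Trpm8 neurons with 2 or more Th UMIs against 144 in 77 without Th, Nefh 726 against 1470, Gal 763 against 489 and Ndrg1 404 against 124. Slc17a6, higher with Th among all Trpm8 neurons, was then 818 against 831. In the Cd34 group the values were 22.6 against 74.7 CPM for Calca and 141 against 338 for Nefh, in 24 and 207 neurons. The choice of 1 rule took out neurons with 5 or more Nefh UMIs and no Trpv1, or with 5 or more Calca and Trpv1. It thus cut Nefh and Calca levels by itself, so these values cannot test whether the Nefh and Calca differences hold. The genes with the largest ratios among all Cd34 neurons included Prl, a gene of the pituitary, in 12 of the 30 neurons. Th and Slc17a8 were seen together in 12 Cd34 neurons, against 6.41 by independent detection, but at 1000 UMIs in 1 against 0.534.

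Th was rarely seen with the other genes of catecholamine synthesis. Of the 202 neurons with Th, 172 held Slc17a6, 16 Slc17a8, 4 Slc18a2, 2 Ddc and none Dbh. By independent detection 131, 3.67, 3.30, 2.36 and 0.472 would be expected for these pairs. At 1000 UMIs, Th was seen with Slc17a6 in 23 neurons against 20.0, with Slc17a8 in 1 against 0.273 and with the others in none. Of the 90 neurons with 2 or more Th UMIs, 4 held any of Ddc, Dbh and Slc18a2 (2 Ddc, 3 Slc18a2 and none Dbh), and at this depth the others are not shown to lack them. Of the 8 genes of a list of sympathetic neurons, 2 were seen in any of these 90, and 1 of 4 genes of a dopamine neuron list.

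The genes whose levels over the 8 groups ran closest to those of the 2 abundant members were found by Pearson correlation of log2(CPM + 10) over 9307 genes with 200 or more UMIs in neurons. For Slc17a6 these were Noa1 (r = 0.986), Cnih4 (0.970) and Ebag9 (0.969), and for Th they were Gabra3, a GABA-A receptor subunit (0.983), Slc12a7 (0.965) and Prkag1 (0.962). Gabra3 stood at 159 CPM in the Cd34 group, 78.3 in the Trpm8 group and 1.83 in the Mrgprd group. The 8 points share 1 sample and differ in size and depth, and the correlations are descriptions.

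Ddc (chromosome 11, 11814101 to 11898144, minus strand) was found less in neurons than in glia. It had 76 UMIs in 45 neurons (1.17%, 0.853 to 1.56%) and 56 UMIs in 44 of 318 glia barcodes (13.8%, 10.2 to 18.1%), at 3.63 and 81.0 CPM, while 1 of 1052 red blood cell barcodes held it. At 1000 UMIs the shares were 0.467% of neurons and 5.66% of glia barcodes. Of 203 glia barcodes with Mog, a gene of oligodendrocytes, 36 held Ddc (17.7%, 12.7 to 23.7%), and of 115 without Mog 8 did (6.96%, 3.05 to 13.2%), with median depths of 1872 and 1403 UMIs. Ddc overlaps the antisense gene 1700042O10Rik, as Gad1 overlaps Gad1os, Slc32a1 Gm14205 and Slc18a2 Gm29261. The strand used in counting is not given in the sources used here, so reads of these pairs may be mixed.

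**Figure D4:**
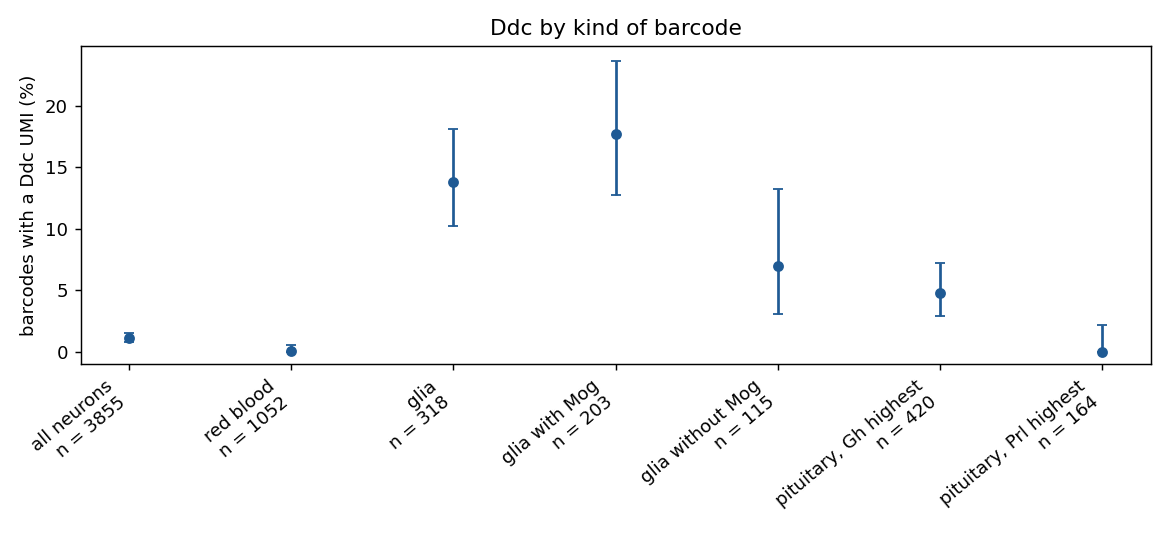
Percent of barcodes with a Ddc UMI, with exact binomial 95% intervals, in neurons, red blood cell barcodes, glia barcodes (all, and with or without Mog) and pituitary barcodes by the highest of 4 hormone genes. Glia stood at 13.8%, those with Mog at 17.7%, and neurons at 1.17%.

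Within the neurons, Ddc was seen in 26 remaining neurons with 49 UMIs, 13 Nefh neurons with 18 UMIs and few others, with none in the Mrgprd group. The 15 neurons with 2 or more Ddc UMIs were led by Vip, Chodl, Slc5a7, Nos1 and Ermn. All 15 also held genes of the glia list, with 2178 UMIs in all, and Ermn, a gene of oligodendrocytes, was in 2 of them. The part of glia RNA in these values was not tested.

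Dbh (chromosome 2, 27165233 to 27183200, plus strand) was found in only 9 neurons, with 23 UMIs, and in no barcode of the glia, red blood cell, pituitary, Omp or Zic1 sets. All 9 were in the remaining group, at 6.46 CPM (4.09 to 9.69), and each held between 1 and 8 Dbh UMIs. All 9 held Vip, a neuropeptide gene, with 35 to 216 UMIs, and all held Nos1, which encodes the neuronal nitric oxide synthase. Slc5a7, the choline transporter of cholinergic neurons, was seen in 7 of them. Of genes of a sympathetic neuron list, Chrna3 was seen in 5, Hand2 in 4, Ecel1 in 2 and Phox2a in 1, while Gata3, Slc6a2 (the noradrenaline transporter) and Npy were at 0. The 9 neurons held no Th, no Slc17a6 and no Gad1, Gad2 or Slc32a1, and no Isl1, Pou4f1 or Scn10a, while Prph was seen in 8 of them with 101 UMIs and Avil in 6 with 14 UMIs. Ddc was seen in 4 of them and Slc18a2 in 1.

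The same genes marked a wider set. Of 24 neurons with 5 or more Vip UMIs, a limit set with the values known, 9 held Dbh (37.5%), 11 Ddc (45.8%), 19 Slc5a7 (79.2%), 21 Nos1 (87.5%), 14 Chrna3 (58.3%) and 10 Hand2 (41.7%). None held Th, and 2 held Slc17a6 (8.33%). In the other 3831 neurons Dbh was not seen, Ddc was seen in 0.887%, Slc5a7 in 1.28% and Slc17a6 in 65.4%. Both sets had like depth, with medians of 3254 and 3014 UMIs. The 24 neurons held 30 of the 76 Ddc UMIs of all neurons, and 21 of them were in the remaining group. Without these 21, an alternative chosen after seeing the data, Ddc in the remaining group stood at 7.76 CPM (5.11 to 11.3) in place of 13.8, against 1.56 in the other groups. The sensory genes Isl1 and Scn10a were each seen in 1 of the 24, against 51.6% and 49.0% of other neurons, whereas Avil was seen in 66.7% against 69.5%.

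**Figure D5:**
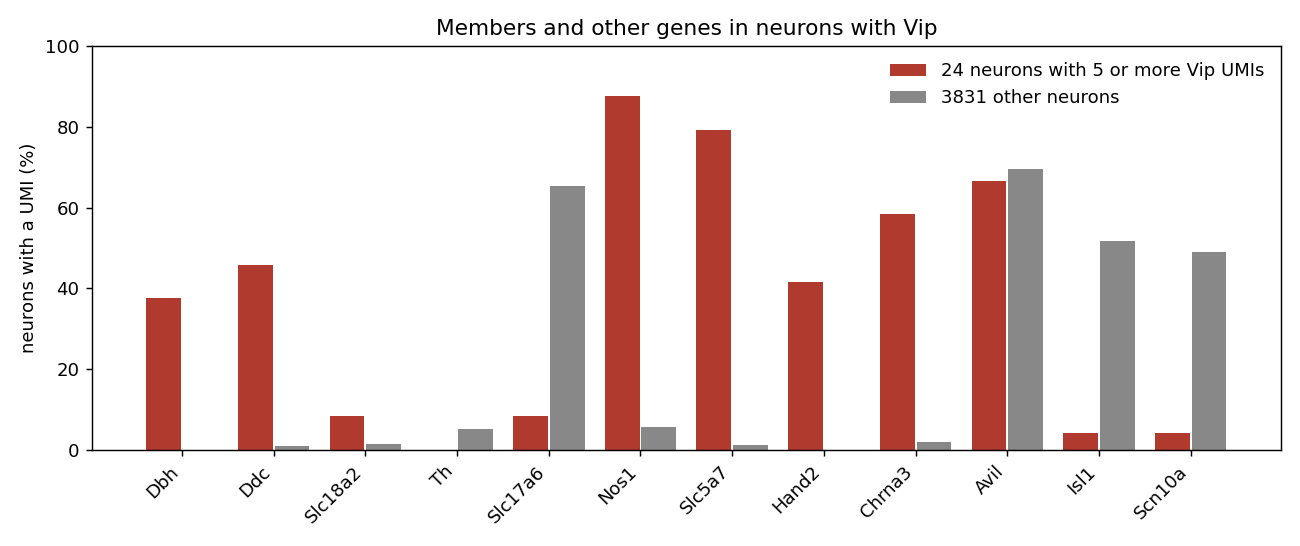
Percent of neurons with a UMI of each gene, in 24 neurons with 5 or more Vip UMIs and in 3831 other neurons. Dbh stood at 37.5% and Ddc at 45.8% in the first set, against 0 and 0.887% in the second, while Slc17a6 stood at 8.33% against 65.4%.

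Genes of GABA synthesis and transport were seen in few neurons. Any of Gad1, Gad2 and Slc32a1 (all on chromosome 2, at 70553072 to 70602014, 22622205 to 22693874 and 158610767 to 158615748, plus strand) was seen in 40 of 3855 neurons (1.04%, 0.742 to 1.41%), against 0 of 318 glia and 3 of 1052 red blood cell barcodes (0.285%). Of these neurons, 17 were in the remaining group and 9 in the Mrgprd group. The other groups held 5 (Nefh), 3 (Cd34), 3 (Mrgpra3), 1 (Trpm8), 1 (Nppb) and 1 (Calca). Gad1 and Gad2 differed in how their UMIs were spread. Gad1 had 46 UMIs in 33 neurons, at most 4 in any, and was the only GABA gene in the Mrgprd group, with 10 UMIs in 9 neurons (2.37%, 1.09 to 4.46%). Gad2 had 51 UMIs in 11 neurons, 14 of them in 1 neuron.

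The neurons with Gad2 held few UMIs of sensory neuron genes. Of the 11, 10 were in the remaining group and the neuron with 14 Gad2 UMIs was in the Cd34 group. Of the 8 with 2 or more Gad2 UMIs, 4 held any of the 8 somatosensory genes, with 6 UMIs in all of Isl1 and Prph and none of Avil. The neuron with 14 Gad2 UMIs held 2 Slc32a1 UMIs and no Slc17a6, Isl1, Prph or Avil, at 2548 UMIs in all. Only 1 of the 11 held Slc17a6. Among them, 1 held 94 UMIs of Npy and 33 of Agrp, and another held 264 UMIs of Pomc with 3 Gad1, 5 Gad2 and 2 Slc17a6. These are neuropeptide genes of the hypothalamus, among other places, and Pomc is also on the list of 4 pituitary genes. Genes of that list were seen in 7 of the 8 neurons with 2 or more Gad2 UMIs. They had 289 UMIs in all, most of them the Pomc of 1 neuron. The source of this RNA was not tested. Another barcode of the remaining group, with no Gad2, held 9 Th, 6 Slc18a2, 2 Gad1, 1 Slc32a1 and 1 Ddc, at 5093 UMIs. Slc32a1 had 11 UMIs in 7 neurons, of which 4 also held Gad2 and 3 Gad1.

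Slc18a2 (chromosome 19, 59260896 to 59296012, plus strand) encodes VMAT2. It had 74 UMIs in 63 neurons (1.63%, 1.26 to 2.09%), with 1 of 318 glia and 1 of 1052 red blood cell barcodes. The Mrgprd group held 16 UMIs in 14 neurons (3.69%, 2.03 to 6.12%), the Calca group 16 in 13, the remaining group 20 in 15, the Cd34 group 9 in 8, the Nefh group 8 in 8 and the Trpm8 group 1. The Mrgpra3 and Nppb groups held 2 each. All neighbours in the order of its level had overlapping intervals. The 6 neurons with 2 or more UMIs were led by Chrna6, a nicotinic receptor subunit, Gna14, Gfra2, Paqr5 and Lap3, at 7.40 to 3.13-fold, and had a median of 25747 UMIs. Of 6 mast cell genes, 1 was seen, with 1 UMI in 1 of them.

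Read against all genes, the number of members past a 2-fold ratio to the other neurons was as follows. The ratio was taken for 13703 genes with 20 or more UMIs in neurons, without the genes of the group rules, and 9 of the 10 members passed that filter, all but Slc32a1. A gene without a UMI in the group stood at 3 counts there, and could only be counted as lower. Slc17a7 passed the filter only through the Nefh group (13 UMIs elsewhere). Gad2 and Dbh passed it only through the remaining group (14 and 0 UMIs elsewhere). The filter thus favoured lower calls of these genes in other groups, and those calls are not comparable with the shares of all genes. In the Trpm8 group 1 member, Slc17a8, was higher where 4.63% of all genes were, and 3 (Slc17a7, Ddc and Slc18a2) were lower where 17% were. In the Cd34 group 3 were higher (Slc17a8, Gad2 and Th) against 5% of genes, Gad2 by 1 neuron, and 3 were lower (Slc17a7, Gad1 and Ddc) against 15.2%. In the Nefh group 1 was higher (Slc17a7) against 6.83%, which passed the filter only through that group (13 UMIs elsewhere) and so had to differ, and 3 were lower (Slc17a8, Gad2 and Th) against 11.6%. In the Mrgprd group none was higher against 5.68%, and 5 were lower (Slc17a7, Slc17a8, Gad2, Th and Ddc) against 20.9%. Of these 5, Slc17a7 and Gad2 passed the filter only through another group.

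In the Calca group none was higher against 6.31%, and 6 were lower (Slc17a7, Slc17a8, Gad1, Gad2, Ddc and Dbh) against 12.2%. Of these 6, Slc17a7, Gad2 and Dbh passed the filter only through another group. In the remaining group 4 were higher (Gad1, Gad2, Ddc and Dbh) against 7.16%, of which Gad2 (14 UMIs elsewhere) and Dbh (0 elsewhere) passed the filter only through this group and so had to differ, and Slc17a7 was lower against 2.04%. Markers of other cell types were also higher in this group than in all neurons, with summed levels of 265 against 58.8 CPM for the central neuron list, 62.9 against 17.9 for the sympathetic list, 865 against 491 for the olfactory list, 3842 against 1059 for the pituitary list and 14113 against 5964 for the red blood cell list, and it held 57 of the 76 Zic1 and 36 of the 68 Omp barcodes that met the neuron rule. Without the Omp and Zic1 barcodes, an alternative chosen after seeing the data, Gad1 in this group stood at 5.67 CPM against 1.32 in the other neurons, Gad2 at 9.24 against 0.841, Ddc at 14.6 against 1.56, Dbh at 6.86 against 0 and Slc17a7 at 1.49 against 3.91. The part of the other cell types' RNA in these values was not tested. The small Mrgpra3 group had 1 higher (Gad1, from 3 UMIs) against 7.98% and 1 lower (Th) against 10.6%. The Nppb group had 2 higher (Ddc and Slc18a2, from 3 and 2 UMIs) against 8.16% and 2 lower (Slc17a6 and Th) against 10.1%. The counts rest on few UMIs for all members but Slc17a6 and Th. The median log2 ratio of the 9 members ranged from -2.22 in the Calca group to 1.45 in the Nppb group, against -0.19 to 0.14 over all genes tested, but several of these medians were set by the 3 counts put in place of 0, so no direction was read from them.

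Of 39 other genes of transmitter pathways, 38 were in the table and 27 passed the same filter. Among the most abundant in neurons were Qdpr (dihydropteridine reductase, 3964 UMIs) and Slc38a2 (a glutamine transporter, 2441 UMIs). Of the 27, past 2-fold, 1 was higher and 7 lower in the Trpm8 group, 1 and 7 in the Mrgprd group, 5 and 7 in the Cd34 group, 5 and 5 in the Nefh group and 2 and 9 in the Calca group. In the Mrgpra3 group these counts were 1 and 3, in the Nppb group 3 and 2 and in the remaining group 6 and 0. Of these 6, Slc1a3 (8 UMIs elsewhere) and Slc6a13 (12 elsewhere) passed the filter only through the remaining group, which favoured a higher call. The same holds for the higher calls of Slc18a1 in the Trpm8 group (16 UMIs elsewhere) and the Nefh group (14 elsewhere). It also holds for Slc6a13 (13 elsewhere) and Hdc (14 elsewhere) in the Cd34 group. The shares of all genes past 2-fold are those given for the members. Abat, which breaks down GABA, was 95.1 CPM in the Mrgprd group against 18.4 in other neurons, the group that also held Gad1 in 9 neurons. Gad1 itself stood at 3.06 CPM there against 2.04, a log2 ratio of 0.58 with an interval that spans 0 (-0.59 to 1.62). Maoa, which breaks down amines, was 211 CPM in the Cd34 group, the group highest in Th, against 63.5. In the Trpm8 group, the next highest in Th, Maoa was past 2-fold lower (37.7 against 90.7). The vesicle protein gene Sv2b was 113 CPM in the Nefh group, the group with Slc17a7, against 19.8, and Maob and the glutamine transporter gene Slc38a1 were also higher there, at 21.8 against 5.02 and 87.4 against 34.8. Slc1a2, a glutamate transporter of the cell surface, was higher in the Cd34 group (16.8 against 5.38) and in the remaining group (16 against 5.24). Slc5a7 was higher in the remaining group (16.3 against 3.46), where 46 of its 58 UMIs lay in the 21 Vip neurons and the level without them was 3.45. It was also higher in the Calca group (9.86 against 4.36), as was Glul, glutamine synthetase (84.2 against 37.6).

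Genes past 2-fold lower included Sv2a in the Mrgprd, Mrgpra3 and Nppb groups (33.3, 49.5 and 24.7 CPM, against 128, 114 and 114 in the respective other neurons), Ache, acetylcholinesterase, in the Mrgprd group (13.4 against 64.2) and Glul and Maoa in the Trpm8 group (15.1 against 52.2 and 37.7 against 90.7). Maob was not seen in the Mrgprd group, where the other neurons held 9.18 CPM, and Gch1, which makes the cofactor of Th, was lower in the Cd34 group (3.23 against 7.01) and the Nefh group (1.18 against 7.47). It was also past 2-fold lower in the Trpm8 group (0.471 against 7.13, from 1 UMI where 15.1 would be expected), a value outside the rule for named genes and given after it was seen.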

How the data were processed

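Trigeminal ganglion cells were profiled by Drop-seq in 9 runs. The authors deposited 1 table of UMI counts, not normalized, of 21536 genes in 6997 barcodes, made by their Drop-seq pipeline. The submitters' processing notes name bcl2fastq 2.17, STAR 2.5.3a, Seurat 1.4.0.16 and the mm10 build, with no role given here for each. Barcodes held 1000 to 190815 UMIs (median 2031) and name no run. Of the barcode sequences, 6 were listed more than once, in 12 columns, and were kept. All barcodes were treated as 1 pooled sample.

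The members, the groups and the gene lists were chosen with earlier results of these data known. Neurons and groups followed fixed marker counts, with no doublet removal. Glia barcodes, none a neuron, held 1% or more of UMIs from a list of 6 glia genes (Mbp, Apoe, Fabp7 and Pmp22 among them) and under 5% from haemoglobin genes. Red blood cell barcodes held 20% or more from haemoglobin genes, and pituitary barcodes 5% or more from Gh, Prl, Pomc and Cga with Epcam. CPM of summed counts carried exact Poisson 95% intervals, and shares Clopper-Pearson intervals. Thinning drew 1000 UMIs per cell without replacement (seed 11). Ratios of 2-fold or more between a group and the other neurons were counted over genes with 20 or more UMIs, with 3 counts in place of 0. The ratio step was tested on simulated counts.

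All 10 members were described in every group. Of the pathway list, the 3 most abundant genes and those past 2-fold with 20 or more UMIs observed or expected were eligible to be named, along with the 3 genes most correlated with each member of 200 or more UMIs and the 5 genes highest in neurons with 2 or more UMIs of a member. Some genes that met these rules are not reported here. Vip, Npy, Agrp, Pomc, Chodl and Th subsets within groups were followed after their values were seen.

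Alternatives were thinning, the mean of each cell's own CPM, totals without haemoglobin and mitochondrial genes, 4 of 6 neuron markers, 900 to 7500 genes, leaving out neurons of more than 1 group rule or Omp and Zic1 barcodes, 2 or more UMIs for a share, mitochondrial genes at most 5%, and other filters and a 4-fold limit for the counts. Leaving the Vip neurons, or the Omp and Zic1 barcodes, out of the remaining group, and taking Th subsets from neurons of 1 group rule, were added after seeing the data. Gene positions and overlaps came from GENCODE vM21 on GRCm38, the assembly of mm10. Near the 3′ ends, 0 words of 50 bases were shared with other genes for 8 members, 1.34% for Gad1 and 0.319% for Ddc. Python 3.11.15, numpy 2.4.6, scipy 1.17.1 and matplotlib 3.10.9 were used.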

Additional observations from a re-analysis of the deposited data

How the results depend on the processing

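Across 11 results and up to 9 alternatives, 60 of 77 values stayed within the interval of the reported value (or within 1.5 times, for counts of neurons). Of the 77, 40 belonged to the 5 log2 ratios, and none of them turned direction. The 65.0% of neurons with Slc17a6 was 32.3% after thinning to 1000 UMIs, 40.6% when 2 UMIs were needed, 67.8% with 4 neuron markers, 69.0% from 900 genes and 62.2% without neurons of more than 1 group rule. The share with Th was 5.94% at 1000 UMIs and 9.38% with 2 UMIs in the Cd34 group, and 2.87% and 6.97% in the Trpm8 group. The share of glia with Ddc was 5.66% and 3.14% under the same settings. Dbh was seen with 2 UMIs in 4 neurons. Without neurons of more than 1 group rule, the log2 ratios were 1.19 for Slc17a6 in the Trpm8 group, 3.82 for Slc17a8 and 2.65 for Th in the Cd34 group, and 2.11 for Th in the Trpm8 group, and the mean of the cells' own CPM gave 1.87 for Th in the Cd34 group. The shares at 1000 UMIs rest on fewer UMIs per cell and those with 2 UMIs on a higher limit, and the cause of the other shifts was not tested. At a minimum of 100 UMIs in neurons, 342 genes were higher in the Trpm8 group (634 at 20 UMIs), 389 in the Cd34 group (685) and 486 in the Nefh group (936), and 132, 183 and 298 at 4-fold. With 1 UMI or more, they were 1614, 1509 and 2160. Lower genes at 100 UMIs numbered 1492 (2335 at 20), 1093 (2080) and 895 (1593), and 871, 901 and 522 at 4-fold. At 100 UMIs only Slc17a6 and Th of the members could be counted.

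No paired analysis was possible because the barcodes name no run, so the replicate numbers of the labels match no cells, and leaving out a run could not be done. Depth limits the sparse members: a gene at 0 in the 49 Mrgpra3 or 57 Nppb neurons has an upper exact limit of 7.25% or 6.27% for the share of them with a UMI, which sets no limit on the share that expresses it. Many of the UMIs of Gad2 and Th lay in a few neurons. Levels are from 1 pooled sample, and variation between mice or runs was not measured.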

Other observations

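Barcodes of pituitary cells also held some members. Of 612 barcodes with hormone genes and Epcam, 44 held Slc17a6 (7.19%, 5.27 to 9.53%, 35.1 CPM), 22 held Ddc (3.59%, 2.27 to 5.39%) and 20 held Slc17a8 (3.27%). Ddc was seen in 20 of 420 barcodes with Gh, growth hormone, as the highest of 4 hormone genes, and in 0 of 164 with Prl, prolactin, highest, which allows up to 2.22% by the exact interval. Slc17a8 was seen in 10 of 164 Prl-led barcodes (6.10%, 2.96 to 10.9%) and in 10 of 420 Gh-led ones (2.38%, 1.15 to 4.33%), at 32.3 and 9.63 CPM. Median depths were 1857.5 and 2368.5 UMIs, so the Prl-led barcodes with the larger share of Slc17a8 were the shallower ones. The difference between the kinds of barcode was not tested, since all come from 1 pooled sample.

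Outside the neuron rule, 1 barcode with 3150 UMIs held 10 Slc32a1, 10 Gad1 and 6 Gad2 UMIs with 1 UMI of Epcam and no Slc17a6, Avil or Prph. It held more Slc32a1 and Gad1 than any neuron, and the rule left it out.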
